A study of Aspergillus luchuensis with 6 samples.

Results

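Secondary transcription starts that lie downstream of a main start, on the same strand, were examined in the mould Aspergillus luchuensis mut. kawachii, used to make white koji. They were found by a rule on positions and pooled tags. On scaffold 1 (DF126447.1) and scaffold 2 (DF126448.1), positions where the 6 libraries together had at least 2 tags were grouped per strand, with steps of up to 20 bp inside a cluster. A leading cluster is one with 100 or more pooled tags, taken in order of tags, whose peak is 2000 bp or more from any leading peak already taken on that strand. Members are the other clusters with 30 or more pooled tags whose nearest same-strand leading peak lies at least 100 and less than 2000 bp upstream. The rule gave 2570 secondary starts out of 36260 clusters in the table, 35184 of them on these 2 scaffolds, and assigned them to 901 of 1211 leading clusters. The members were chosen by tags pooled over both strains and by distance, and the difference between strains was not used.

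CAGE, cap analysis of gene expression, reads the capped 5′ end of each RNA, so that a tag is taken to mark the base where transcription began. Whether each cluster of tags is a transcription start was not tested here. A promoter can have several starts, and a start further down the same gene gives an RNA that lacks the first part of the main one. In budding yeast, deacetylation of histones over transcribed regions is known to keep starts inside genes quiet. Sirtuins, which consume NAD, remove acetyl and similar groups from proteins, histones among them. Whether sirD has any part in keeping such starts quiet was not tested here.

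The mutant strain is a sirtuin D (sirD) disruptant, labelled KsirD, with 3 libraries, and the control strain is labelled Kctrl4 (strain ctrl4), with 3 libraries. Both were grown as rice koji, a solid culture of the mould on steamed rice, and total RNA was taken, and no treatment or time point is given in the labels. Each group is 1 strain, and the labels do not say whether the replicates were separate cultures, so p-values measure only how these libraries vary, which may be technical. The labels were not checked by the level of sirD itself, because the rows carry no gene identifiers and no annotation in these coordinates was used. No gene name or sequence can therefore be given for a start, and each is named by its position. The RNA is from bulk culture, so fewer hyphae using a start and fewer RNAs per hypha cannot be told apart.

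The table held 3336690 to 3580777 tags per KsirD library and 3148498 to 3275687 per Kctrl4 library. Of these, 126916 to 134194 in KsirD and 106855 to 115610 in Kctrl4 fell in the secondary starts. Together the secondary starts held 725562 tags, 8.11% of all cluster tags on the 2 scaffolds, where the leading clusters held 84.4%. Few secondary starts were empty in a library, 3 to 8 in the KsirD libraries and 5 to 16 in the Kctrl4 libraries. Scaffold 1 carried 1658 of them (863 on the plus and 795 on the minus strand) and scaffold 2 carried 912 (445 plus and 467 minus).

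Most secondary starts were weak, and from 500 bp on their number fell with distance from the main start. The rule bears on both, so they are a description only. It takes leading clusters by tags, and a start nearer to the next leading peak is given to that peak. The median distance was 628.5 bp, with quartiles of 350 and 1055.5 bp. Counted by distance, 500 lay at 100 to 299 bp, 509 at 300 to 499 bp, 843 at 500 to 999 bp, 472 at 1000 to 1499 bp and 246 at 1500 bp or more. The median secondary start had 76 pooled tags (quartiles 44 and 179, range 30 to 26208). Its ratio to the leading cluster, pooled tags over pooled tags, had a median of 0.0273 (quartiles 0.00909 and 0.107). In 680 secondary starts the ratio was under 0.01, and in 158 it was above 0.5. It was above 1 in 18. By the rule, each of these also lay less than 2000 bp upstream of a still larger leading cluster, which kept it from being taken as leading. Such a start was counted as downstream because the smaller leading peak above it was nearer.

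Secondary starts were narrower than the main starts they followed. Their median width was 67 bp over a median of 13 used positions, and the median width of their leading clusters was 190 bp. The rule set the order of their tags, so this is a description only. The median share of a start's tags at its peak base was 26.1%, and 184 starts had more than 80% of their tags at 1 base. Some lay close to the edge of the leading cluster, with a gap of under 100 bp for 473 (18.4%). For these, a separate start and an outlying piece of the leading cluster cannot be told apart. The median leading cluster with any secondary start had 2 of them, 263 had 1 and 164 had 5 or more.

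At the thresholds of the rule, 52 secondary starts had exactly 30 tags (median distance 673 bp, median ratio 0.0123) and 43 clusters with 29 tags were left out (571 bp, 0.00806). The nearest secondary start lay at 101 bp with 1181 tags and a ratio of 0.511, and the first cluster left out at 98 bp had 112 tags and a ratio of 0.571. The farthest lay just under 2000 bp with 308 tags and a ratio of 0.0302, and the first left out, at 2003 bp, had 69 tags and a ratio of 0.605.

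**Figure D1:**
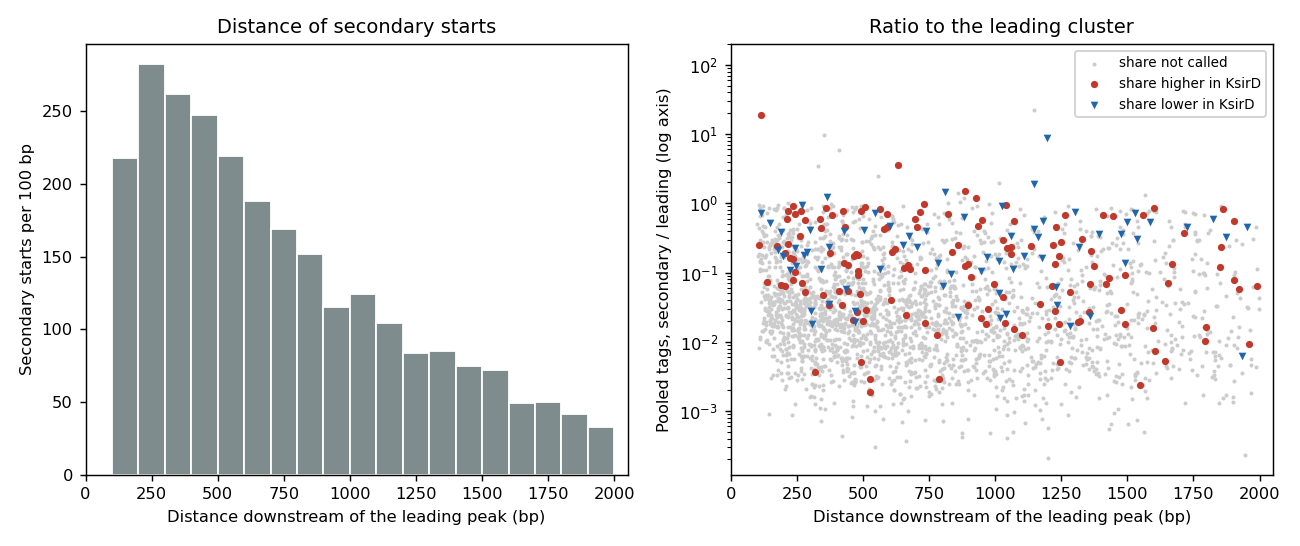
Left, number of secondary starts per 100 bp of distance downstream of the leading peak. Right, pooled tags of each secondary start over those of its leading cluster (log axis) against distance in bp, with starts whose share was higher (143, red circles) or lower (70, blue triangles) in KsirD than in Kctrl4 and those not called in grey; most ratios lie below 1, with a median of 0.0273.

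The first comparison asked whether the use of secondary starts, relative to their main start, differs when sirD is disrupted. No annotation was used, so whether a secondary start and its leading cluster belong to the same gene is not known. A changed share may therefore compare starts of different genes. Among the 2570 secondary starts, the share relative to the leading cluster was higher in KsirD for 143 and lower for 70. These are 5.56% and 2.72% of the secondary starts, where over all 4065 pairs tested, upstream starts included, 6.25% were higher and 5.83% lower. In either direction 8.29% of secondary starts were called, against 12.1% of all pairs. The share of secondary starts called higher was thus near the background, and the share called lower was under it. The test was edgeR's quasi-likelihood test on the tags of the start, with the tags of its leading cluster in the same library as offset, called at an adjusted p below 0.05 (Benjamini-Hochberg over all pairs).

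The called changes were often large. The median log2 change of the ratio, KsirD minus Kctrl4, was 1.56 for the higher and −1.46 for the lower starts. Changes of that ratio of at least 2-fold were seen in 119 higher and 58 lower starts, and of at least 4-fold in 32 higher and 16 lower. Over all called pairs, 207 of 254 higher and 190 of 237 lower changed at least 2-fold. The shares of the 3 libraries of each strain did not overlap in 130 of the 143 higher and 66 of the 70 lower starts. For all called pairs this held in 229 of the higher and 222 of the lower. The calls rest on these same shares, so size and separation are no separate support for them. Over all secondary starts the shares did not overlap in 518 (20.2%), 351 of them higher and 167 lower, where the figure over all pairs was 25.3%. Both scaffolds held called starts, with 93 higher and 38 lower on scaffold 1 and 50 higher and 32 lower on scaffold 2. Fewer calls were made with other tests, 95 higher and 42 lower with DESeq2 and 57 higher and 25 lower with limma on log2 ratios.

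Over the libraries as a whole, the share of tags in secondary starts was higher on average in KsirD, but the strains overlapped. Share here means tags of the start over tags of the start plus its leading cluster. Summed over all secondary starts it was 9.74%, 9.69% and 9.31% in the KsirD libraries, against 9.64%, 8.52% and 8.83% in the Kctrl4 libraries. Kctrl4 library 1 lay within the KsirD range and the other 2 below it. The means were 9.58% ± 0.236 in KsirD and 8.995% ± 0.577 in Kctrl4 (SD, n = 3 each), a difference of 0.585 percentage points (two-sided exact permutation test, p = 0.2, adjusted p = 0.267 over 12 quantities, smallest possible p 0.1). That difference was 0.906 points without Kctrl4 library 1 and 0.348 points without Kctrl4 library 2. With positions joined within 50 bp it was 0.340 points, and within 5 bp 0.887 points.

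The median share over single starts gave the same order. It was 2.79%, 2.78% and 2.64% in the KsirD libraries, against 2.70%, 2.22% and 2.33% in the Kctrl4 libraries (exact permutation test, p = 0.2). The median log2 change was 0.12 over the secondary starts and 0.05 over all pairs, with the strains' libraries overlapping in their median shares. It was 0.20 without Kctrl4 library 1 and 0.06 without Kctrl4 library 2, so its size depended on these 2 control libraries.

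By distance, the median shares of the strains overlapped near the main start and stood apart from 500 bp on. At 100 to 299 bp they were 4.27% ± 0.266 in KsirD and 3.90% ± 0.394 in Kctrl4 (SD, n = 3 each, exact permutation p = 0.3), and at 300 to 499 bp 2.56% ± 0.157 in KsirD and 2.41% ± 0.304 in Kctrl4 (exact permutation p = 0.7). At 500 to 999 bp the means were 2.37% ± 0.0904 in KsirD and 2.00% ± 0.174 in Kctrl4, and the libraries did not overlap. At 1000 to 1499 bp the median share was 2.19%, 2.00% and 2.17% in the KsirD libraries and 1.80%, 1.66% and 1.75% in the Kctrl4 libraries, again with no overlap. At 1500 bp or more it was 2.69%, 2.83% and 2.69% in the KsirD libraries and 2.15%, 2.12% and 2.17% in the Kctrl4 libraries, also with no overlap. Each of the last 3 exact permutation tests gave p = 0.1, the smallest possible, and an adjusted p of 0.2. Whether the shift differed between distances was not tested.

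**Figure D2:**
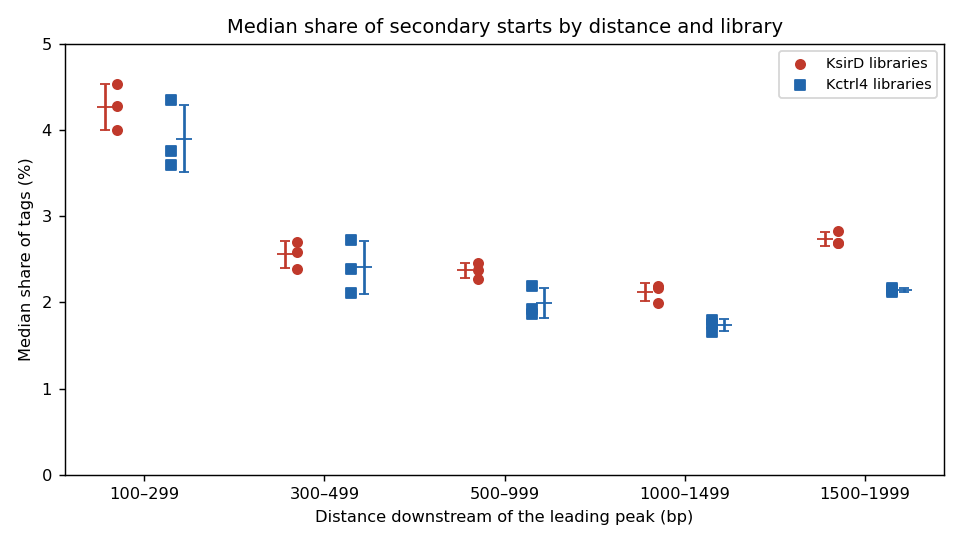
Median share of tags (%) of the secondary starts in each library, by distance downstream of the leading peak in bp; points are libraries, KsirD as red circles left of Kctrl4 as blue squares, with mean ± SD of 3 libraries beside them. The strains overlap up to 499 bp and stand apart from 500 bp on, with 2.74% in KsirD and 2.15% in Kctrl4 at 1500 bp or more.

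Counted by distance, calls were more frequent from 1000 bp on, and by strength their percentage increased with the ratio. At 100 to 299 bp 21 starts were higher and 11 lower (6.40% called), at 300 to 499 bp 25 and 11 (7.07%) and at 500 to 999 bp 40 and 16 (6.64%). At 1000 to 1499 bp 38 were higher and 24 lower (13.1%), and at 1500 bp or more 19 were higher and 8 lower (11.0%). Of the clusters upstream of a main start, 10.8%, 15.2%, 20.8%, 23.5% and 22.4% were called in the same 5 ranges, so a higher percentage at larger distances is not particular to the secondary starts. By ratio, 10 higher and 1 lower calls fell on the 680 starts with a ratio under 0.01 (1.62% called), and 53 higher and 16 lower on the 1221 with a ratio of 0.01 to 0.1 (5.65%). Above these, 48 higher and 37 lower calls fell on the 510 with a ratio of 0.1 to 0.5 (16.7%), and 32 higher and 16 lower on the 159 with 0.5 or more (30.2%). The median tags of the 4 classes were 48, 87, 96 and 215, so the weakest class also had the fewest tags to count. The median tags of their leading clusters ran the other way, at 13239, 3586, 456.5 and 279. The test takes the leading tags as a fixed offset, without a counting error of their own. Whether the percentage called depended on either count was not tested. Called starts had a median of 115 tags when higher and 164 when lower, against 73 for those not called.

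**Figure D3:**
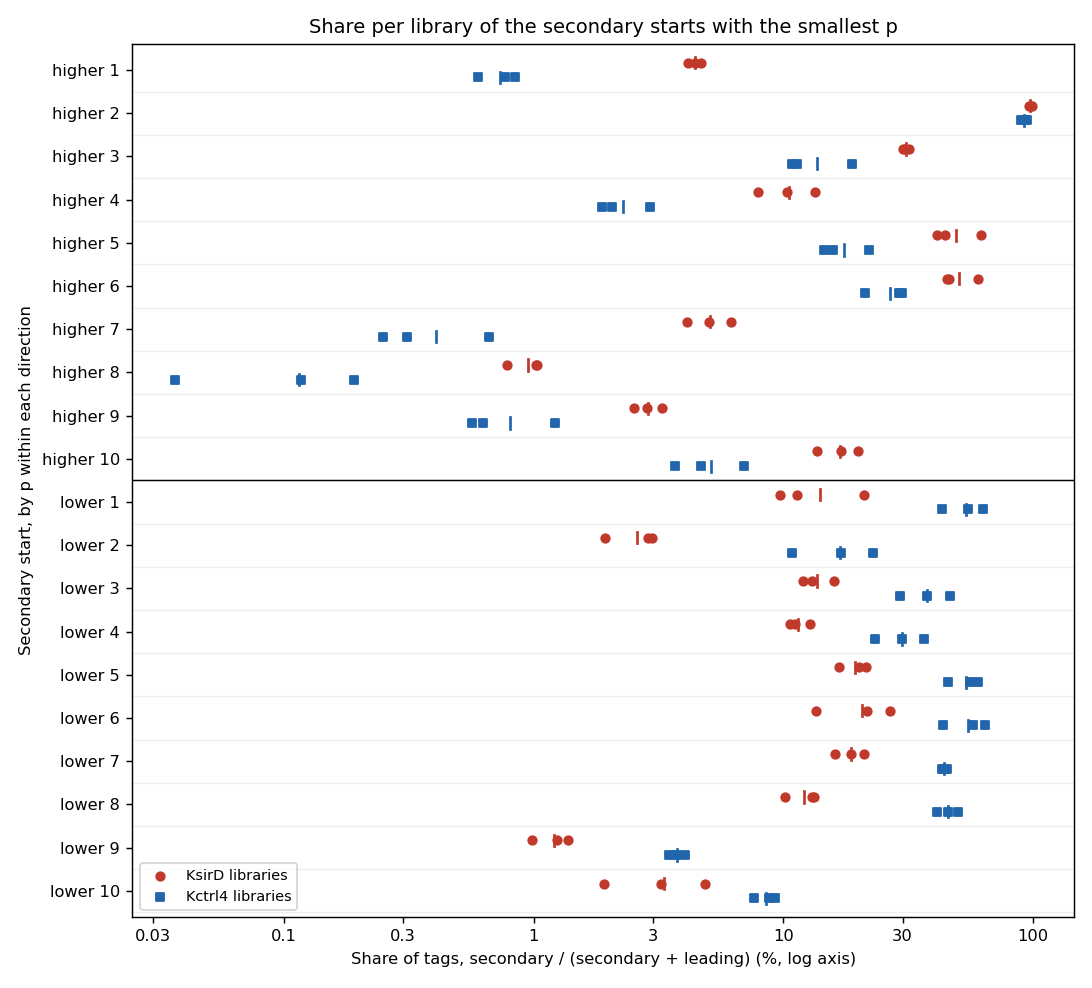
Share of tags (%, log axis) in each library of the 10 secondary starts with a higher and the 10 with a lower share in KsirD that had the smallest p, in order of p; KsirD libraries are red circles, above Kctrl4 libraries as blue squares, and vertical bars are means of 3. In all 20 the libraries of the strains do not overlap, which the choice by smallest p favours.

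Taken by smallest p, the first 10 starts that rose in share had a ratio to the leading cluster 2.79-fold to 12.1-fold higher in KsirD, with adjusted p up to 1.67e-05 (edgeR quasi-likelihood test). In 6 of them the level of the start itself rose, and in 5 the level of the leading cluster fell. First in order of p was the start at 1312182 to 1312246 of scaffold 1, plus strand, 1227 bp below its leading peak. It had 53, 68 and 59 tags in the KsirD libraries, against 7, 10 and 9 in the Kctrl4 libraries. Its leading cluster, at 1310930 to 1311062, had 1227, 1386 and 1280 tags in KsirD and 1166, 1296 and 1058 in Kctrl4. The level of the secondary start rose (log2 2.67), and that of the main start did not pass the test (log2 0.04, adjusted p = 0.858). The share was 4.41% ± 0.268 in KsirD and 0.735% ± 0.126 in Kctrl4 (log2 change of the ratio 2.63, SE 0.34, adjusted p = 1.17e-07).

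Another start that rose in level lay at 1315859 to 1315875 of scaffold 1, minus strand, 896 bp from its leading peak. It had 19, 31 and 42 tags in KsirD, against 1, 3 and 1 in Kctrl4, beside a leading cluster with 444, 585 and 642 tags in KsirD and 400, 448 and 322 in Kctrl4. The level of that leading cluster was 1.33-fold higher in KsirD, just short of the threshold (log2 0.41, adjusted p = 0.0603). With so few control tags the 12.1-fold rise of its ratio to the leading cluster is imprecise (log2 3.59, SE 0.55, adjusted p = 3.56e-06). These 2 starts lie on opposite strands of 1 stretch of scaffold 1, and each kept its call in all 11 settings run on it. Larger in tags was the start at 925306 to 925766 of scaffold 1, minus strand, with 420, 360 and 396 tags in KsirD and 138, 176 and 99 in Kctrl4. Its leading cluster had 281, 422 and 478 tags in KsirD and 337, 415 and 367 in Kctrl4. The share was 50.4% ± 8.23 in KsirD and 26.7% ± 4.73 in Kctrl4, so that in KsirD library 1 the secondary start had more tags than the main one.

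Starts at 2022505 to 2022583 of scaffold 1 (plus strand, 1644 bp) and at 1521242 to 1521301 of scaffold 2 (minus strand, 427 bp) also rose in level, with a log2 change in level of 2.81 and 2.23. Their shares were 0.947% ± 0.142 in KsirD and 0.115% ± 0.0772 in Kctrl4 for the first, and 16.9% ± 3.14 in KsirD and 5.11% ± 1.66 in Kctrl4 for the second. The start at 284910 to 285031 of scaffold 1, plus strand, rose in level (log2 1.85) while its leading cluster fell (log2 −0.46, adjusted p = 0.0219). Its share was 7.92%, 13.3% and 10.3% in the KsirD libraries and 1.88%, 2.92% and 2.06% in the Kctrl4 libraries. At 1991 bp it lay almost at the outer limit of the rule.

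In the other 4 of the 10, the assigned leading cluster fell and the level of the secondary start did not pass the test. At 399080 to 399192 of scaffold 1, plus strand, the start had 40, 33 and 31 tags in KsirD and 56, 31 and 35 in Kctrl4, while its leading cluster had 25, 47 and 39 in KsirD and 199, 182 and 186 in Kctrl4. The share was thus 49.0% ± 10.9 in KsirD and 17.5% ± 3.96 in Kctrl4 (log2 2.18, SE 0.31, adjusted p = 9.82e-07). At 1856773 to 1857226 of scaffold 1, minus strand, the share was 30.1%, 30.8% and 31.8% in KsirD, against 11.3%, 18.9% and 10.8% in Kctrl4, and the leading cluster fell (log2 −1.20, adjusted p = 1.66e-05). At 1173513 to 1173575 of scaffold 1, plus strand, the share was 2.88% ± 0.361 in KsirD and 0.804% ± 0.358 in Kctrl4, and the leading cluster again fell (log2 −1.14).

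The last of these, at 1884796 to 1885012 of scaffold 1, minus strand, lay 114 bp from its leading peak and 41 bp from the edge of that cluster. This start outweighed its leading cluster in every library. By the rule, a still larger leading cluster lay less than 2000 bp downstream of it. The cluster that fell was therefore not the largest start of this stretch. The secondary start had 701, 884 and 847 tags in KsirD and 604, 799 and 863 in Kctrl4, where its assigned leading cluster had 10, 20 and 35 in KsirD and 74, 60 and 49 in Kctrl4. The log2 change of the ratio was 1.78 (SE 0.23, adjusted p = 1.17e-07). The call was lost with limma on log2 ratios (adjusted p = 0.0641) and with edgeR's diffSpliceDGE (log2 0.12, adjusted p = 0.838), which sets a start against all clusters of its unit.

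Taken by smallest p, the first 10 starts that fell in share had a ratio to the leading cluster 2.74-fold to 7.58-fold lower in KsirD, with adjusted p up to 1.50e-05 (edgeR quasi-likelihood test). The level of the start itself fell in 9, and the level of the leading cluster rose in 7. The start at 1722110 to 1722204 of scaffold 2, plus strand, 1497 bp from its leading peak, had 16, 27 and 15 tags in KsirD, against 123, 78 and 44 in Kctrl4. Its leading cluster, at 1720623 to 1720781, had 149, 101 and 117 tags in KsirD and 73, 64 and 58 in Kctrl4. The share was 9.70%, 21.1% and 11.4% in KsirD, and 62.8%, 54.9% and 43.1% in Kctrl4, so that the secondary start was the larger of the pair in 2 Kctrl4 libraries and in 0 KsirD libraries (log2 −2.91, SE 0.31, adjusted p = 1.79e-09).

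In 2 other pairs too the secondary start was the larger in Kctrl4 libraries alone. At 1900171 to 1900226 of scaffold 1, plus strand, the start had 15, 18 and 13 tags in KsirD and 45, 42 and 25 in Kctrl4, beside 60, 66 and 65 leading tags in KsirD and 30, 33 and 30 in Kctrl4 (log2 −2.30, SE 0.34). At 1803625 to 1803707 of scaffold 2, plus strand, it was 13.5%, 21.5% and 26.7% in KsirD, against 57.4%, 64.1% and 43.5% in Kctrl4. This was the start of the 10 whose own level did not pass the test (log2 change in level −0.45, adjusted p = 0.331), while its leading cluster rose, with 109, 102 and 66 in KsirD and 20, 23 and 26 in Kctrl4. At 262772 to 262821 of scaffold 1, plus strand, the share was 12.1% ± 1.72 in KsirD and 45.7% ± 4.31 in Kctrl4, on 7, 9 and 8 tags in KsirD and 25, 24 and 21 in Kctrl4.

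At 1377019 to 1377117 of scaffold 1, minus strand, 149 bp from its leading peak, the start fell in level (log2 −1.93) and its leading cluster did not pass the test (log2 −0.13, adjusted p = 0.684). It had 19, 23 and 21 tags in KsirD and 86, 74 and 64 in Kctrl4, beside 99, 100 and 79 leading tags in KsirD and 105, 94 and 84 in Kctrl4. The share was 18.6% ± 2.45 in KsirD and 44.1% ± 0.893 in Kctrl4 (log2 −1.79, SE 0.28, adjusted p = 5.11e-06). Starts at 321421 to 321491 (plus strand) and at 1947210 to 1947247 (minus strand) of scaffold 2 also fell beside a leading cluster that did not pass the test. Their shares were 1.20% ± 0.198 in KsirD and 3.75% ± 0.275 in Kctrl4 for the first, and 3.34% ± 1.48 in KsirD and 8.55% ± 0.851 in Kctrl4 for the second, where limma on log2 ratios gave an adjusted p of 0.0639. At 482195 to 482324 of scaffold 1, plus strand, the share was 12.7%, 11.1% and 10.6% in KsirD and 29.9%, 23.2% and 36.6% in Kctrl4, with the start lower and the leading cluster higher in level.

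Over all called starts, a higher share went with either partner. Of the 143 with a higher share, the level of the start rose in 53, and that of the leading cluster fell in 59 and rose in 3. Of the 70 with a lower share, the level of the start fell in 44, and that of the leading cluster rose in 20 and fell in 7. Levels were tested with edgeR's quasi-likelihood test on all clusters that passed a filter on low tags, which 1606 of the 2570 secondary starts did. Among called shares, 35 higher and 13 lower starts did not pass that filter.

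Most changes in level ran along with the main start. The level of 328 of the 1606 tested secondary starts changed, 178 higher and 150 lower, which is 11.1% and 9.34% where 10.4% and 14.0% of all tested clusters were called. The leading cluster changed in the same direction in 185 of the 328 and in the opposite direction in 10. The leading cluster was not called beside 79 of the higher and 54 of the lower starts. Of the 901 leading clusters with a secondary start, 126 rose and 160 fell.

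For the most abundant secondary starts no change in share was called. The 5 with most tags had 7127 to 26208 pooled tags, and none passed the test (adjusted p 0.232 to 0.954, edgeR). The largest, at 1909717 to 1909905 of scaffold 2, plus strand, had 5136, 5690 and 5591 tags in KsirD and 2787, 3710 and 3294 in Kctrl4. Its leading cluster had 32170, 35424 and 33053 in KsirD and 18807, 26532 and 22024 in Kctrl4. Both rose in level (log2 0.64 and 0.47, adjusted p = 0.00205 and 0.0143), and the share was 14.0% ± 0.385 in KsirD and 12.7% ± 0.402 in Kctrl4 (log2 change of the ratio 0.16, SE 0.14). Its libraries did not overlap in share between the strains. The starts at 1334994 to 1335308 and at 658240 to 659159 of scaffold 1, both on the minus strand, likewise rose in level together with their leading clusters, with shares of 12.0% ± 0.576 in KsirD and 12.2% ± 1.48 in Kctrl4 and of 14.2% ± 1.46 in KsirD and 15.9% ± 0.623 in Kctrl4. At 1198873 to 1199036 of scaffold 1, minus strand, it was 13.7% ± 1.01 in KsirD and 12.6% ± 2.02 in Kctrl4. The starts at 1909717 and 1334994 lay 74 and 29 bp from the edge of their leading clusters. For these, a separate start and an outlying piece of the leading cluster cannot be told apart.

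The second in tags was a nearly single-base start at 19681 to 19725 of scaffold 2, minus strand, with 94.4% of its tags at 1 position. It lay 107 bp from its leading peak and 23 bp from the edge of that cluster, so the same limit holds for it. It had 1998, 1914 and 1943 tags in KsirD and 1718, 1834 and 1774 in Kctrl4, and its leading cluster 1915, 1848 and 1769 in KsirD and 2011, 2145 and 2070 in Kctrl4. Its share was 51.1%, 50.9% and 52.3% in KsirD and 46.1% in each Kctrl4 library. The libraries did not overlap and the spread was small, but the 1.24-fold change of the ratio to the leading cluster did not pass the test (log2 0.31, SE 0.15, adjusted p = 0.232, edgeR). That test sets the error of a pair partly from its own counts and partly from those of the other pairs.

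Of the 5 starts with the highest ratio to their leading cluster, 5.87 to 22.3, the start at 1884796 is given above. By the rule, each of the 5 also lay upstream of a still larger leading cluster. At 1858174 to 1858684 of scaffold 1, plus strand, the share was 95.2% ± 1.22 in KsirD and 96.2% ± 0.925 in Kctrl4. At 848946 to 849222 of scaffold 1 and 1042979 to 1043196 of scaffold 2, both on the minus strand, it was 90.9% ± 1.14 in KsirD and 90.4% ± 1.07 in Kctrl4, and 85.5% ± 2.03 in KsirD and 85.3% ± 1.62 in Kctrl4. These 3 did not pass the test. At 303318 to 303402 of scaffold 2, plus strand, the start had 70, 59 and 65 tags in KsirD and 281, 248 and 266 in Kctrl4, and its share fell (log2 −1.28, SE 0.26, adjusted p = 0.000374). That call was lost with DESeq2 (adjusted p = 0.164) and with limma on log2 ratios (adjusted p = 0.127), and its leading cluster had 7, 19 and 20 tags in KsirD and 22, 21 and 25 in Kctrl4.

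Several secondary starts of 1 main start share that main start's tags as the other side of the ratio, so they are not independent. The 213 called starts belonged to 170 leading clusters, and 135 of these had 1 called start. Of the 35 with 2 or more, 21 had all called starts higher, 8 all lower and 6 both directions. The leading cluster at 666078 to 666755 of scaffold 1, plus strand, had most called higher, 4 of its 6 secondary starts. It had 314, 386 and 302 tags in KsirD and 683, 582 and 503 in Kctrl4 and fell in level (log2 −0.92, adjusted p = 0.000146). Its first secondary start, at 666776 to 666950, lay 21 bp from the edge of the leading cluster. A separate start and an outlying piece of the leading cluster cannot be told apart there. This start had 425, 374 and 389 tags in KsirD and 310, 344 and 305 in Kctrl4. Its share was 54.3% ± 4.48 in KsirD and 35.4% ± 3.61 in Kctrl4, and none of the 5 starts with a tested level passed, so a fall of the main start was detected and no change of the starts below it.

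The leading cluster at 212847 to 213227 of scaffold 2, minus strand, had most called lower, 4 of 6. It had 552, 642 and 557 tags in KsirD and 350, 484 and 341 in Kctrl4 and rose in level (log2 0.47, adjusted p = 0.0247). The start 834 bp below it, at 212109 to 212173, had 17, 19 and 11 tags in KsirD, against 103, 59 and 70 in Kctrl4, and its share fell to 2.60% ± 0.577 in KsirD, against 16.9% ± 5.94 in Kctrl4. The next, at 211761 to 212065, had 105, 87 and 83 tags in KsirD and 301, 201 and 204 in Kctrl4 (share 13.6% ± 2.10 in KsirD and 37.7% ± 8.45 in Kctrl4). Both fell in level. Between them and the main start, the start at 212204 to 212603 had 123, 105 and 104 tags in KsirD and 132, 101 and 120 in Kctrl4, and the level of that start did not pass the test (log2 −0.20, adjusted p = 0.489).

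**Figure D4:**
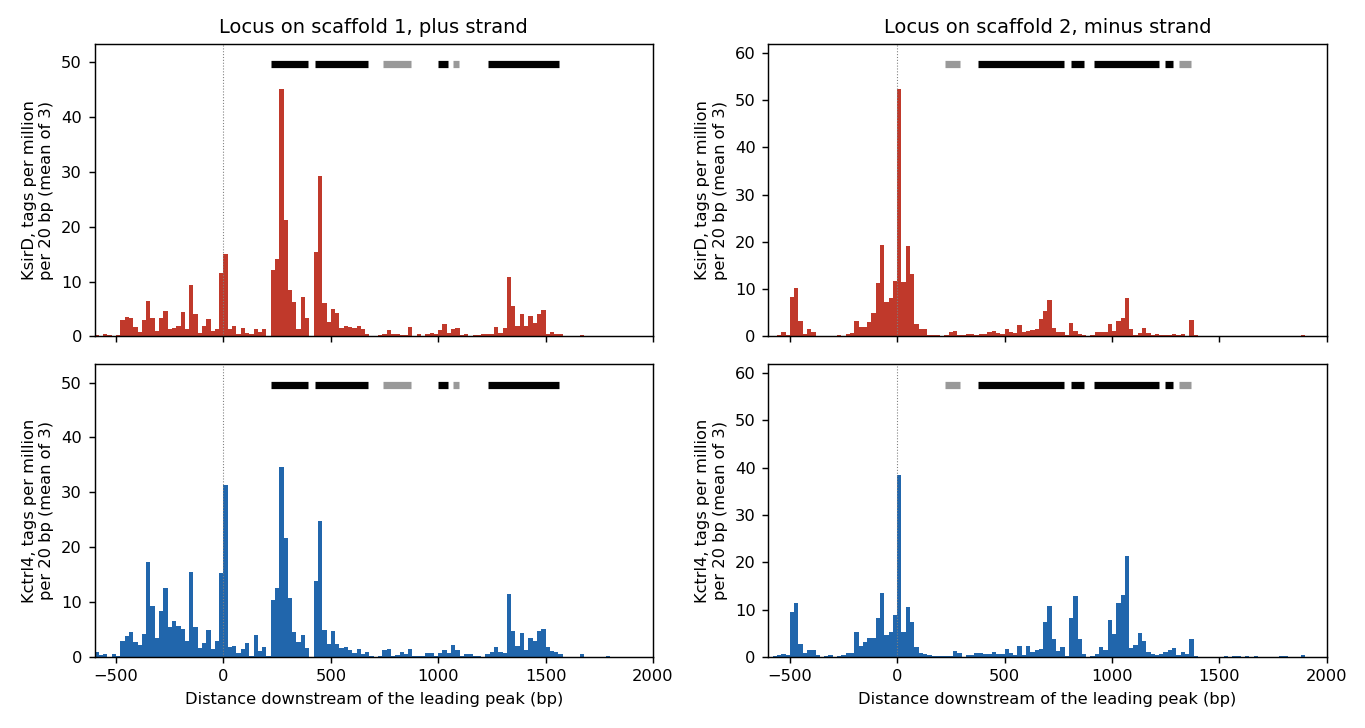
Tags scaled to library size (CPM) per 20 bp (mean of 3 libraries), KsirD above Kctrl4, against distance in bp from the leading peak at the loci with most secondary starts higher in share (left) and most lower (right), both chosen after their values were seen; bars at the top mark the secondary starts, black where the share was called and grey where not. On the left the tags around and upstream of 0 are lower in KsirD, and on the right those near 834 and 1060 bp are lower in KsirD.

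At the main starts with most secondary starts no share was called. The leading cluster at 1447071 to 1447261 of scaffold 1, minus strand, had 11, from 167 to 1966 bp, with 32 to 378 tags each and 8.91% of the tags of the group together. The one at 1009050 to 1009714 of scaffold 2, minus strand, had 10, with 3.50% of the tags, and the one at 183557 to 183999 of scaffold 1, plus strand, had 10, with 6.24%. The 31 starts had adjusted p from 0.0819 to 0.989 (edgeR). The median log2 change was 0.07, 0.49 and −0.07 at the 3 loci, and none of the 3 leading clusters passed the level test. Of the 20 secondary starts there with a tested level 2 rose, both below the leading cluster at 1009050, at 1008866 to 1009025 (log2 0.84, adjusted p = 0.00859) and at 1008187 to 1008280 (log2 1.06, adjusted p = 0.00532).

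Secondary starts downstream of a main start had more higher than lower calls, and clusters upstream of a main start, at the same range of distances, had fewer. The counts were 143 higher and 70 lower of 2570 downstream, against 108 higher and 164 lower of 1439 upstream (7.51% and 11.4%). The downstream counts include the 18 starts with a ratio above 1, of which 4 were higher and 4 lower. Those also lie upstream of a larger leading cluster. The median log2 change was 0.12 downstream and −0.14 upstream, and it lay above 0 for 1516 of the downstream and 636 of the upstream starts. The ratio of the pooled downstream share to the pooled upstream share was 1.24, 1.20 and 1.16 in the KsirD libraries and 1.07, 1.01 and 1.06 in the Kctrl4 libraries, with no overlap. The ratio of the median shares was 0.533, 0.491 and 0.507 in KsirD and 0.432, 0.410 and 0.395 in Kctrl4, also with no overlap. Each gave p = 0.1 in the exact permutation test, the smallest that this test can give for 3 libraries against 3, and an adjusted p of 0.2. The gap between the median log2 changes of the downstream and upstream starts, 0.25, lay between 0.19 and 0.25 in the 11 other fits of these pairs, in each of which downstream starts had more higher than lower calls and upstream starts more lower than higher.

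**Figure D5:**
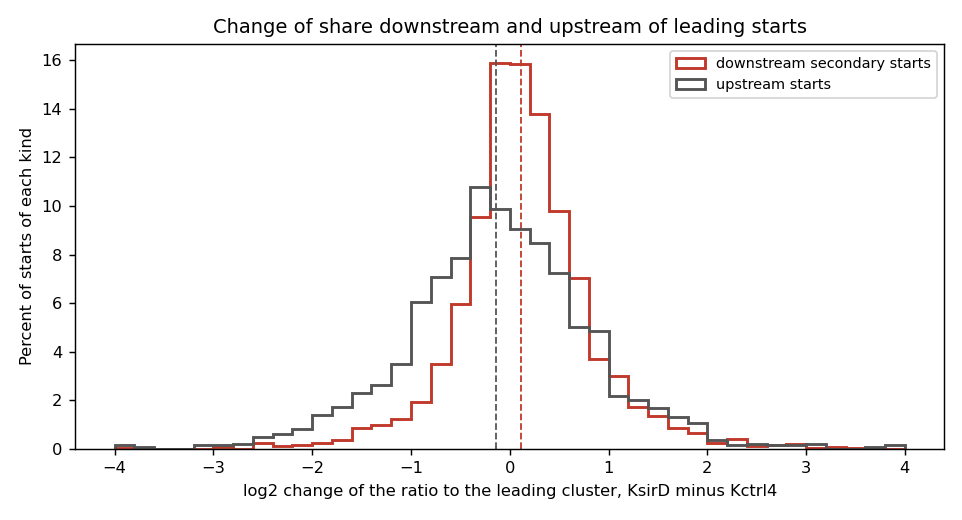
Percent of starts against the log2 change of the ratio to the leading cluster, KsirD minus Kctrl4, for the 2570 secondary starts downstream (red) and the 1439 clusters upstream (grey) of a leading start; dashed lines are the medians, 0.12 downstream and −0.14 upstream, and values beyond the axis are counted in the last bins.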

How the data were processed

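Groups and replicate numbers come from the labels. The deposited values are counts of CAGE tags per position and strand, which the authors made with FastQC, BWA and bedtools, per the submitters' processing notes. The genome build was not given in the sources used here, nor were versions and mapping settings. Deposited positions count from 0, and 1 was added. The table has 1048575 rows, a spreadsheet's limit. Scaffold 2 has no rows at 4748 to 10002, 47455 to 100011 and 474756 to 1000002, and 13 secondary starts, none called, lay within 2000 bp of such a stretch or of the ends of the rows. These stretches begin with the same digits, as would be left by rows sorted as text and cut at that limit. They are not taken as a lack of tags.

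Clusters, leading clusters and secondary starts were built as described above, and no distance was tied between 2 leading peaks. For every pair, edgeR 4.0.16 (R 4.3.3) was fitted to the tags of the non-leading cluster with the log of the leading tags plus 0.5 as offset, rescaled per pair. Levels were fitted on all clusters passing filterByExpr, with TMM factors. Neither fit had covariates. Standard errors derive from the F statistic. DESeq2 1.42.0, limma 3.58.1 and diffSpliceDGE were alternatives. Both fits were tested on simulated data. In the share simulation the member means were built on the leading tags as drawn. It therefore could not show effects of counting error in the leading tags. Libraries of 1 strain differed beyond sampling noise (chi-square per degree of freedom 8.76 to 19.9 over clusters).

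Named starts are, by smallest p, 10 called higher and 10 called lower, the 5 with most tags, the 5 with the highest ratio, those of the 3 leading clusters with most members and those at each threshold. The 2 loci with most called starts were chosen after their values were seen. The starts and tests were chosen with earlier results of these data known.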

Additional observations from a re-analysis of the deposited data

How the results depend on the processing

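The 213 secondary starts with a changed share (143 higher, 70 lower) became 137 with DESeq2, 82 with limma on log2 ratios, 139 with diffSpliceDGE, 128 when at least 100 tags were required, 126 when clusters were joined over 50 bp and 117 with a threshold of 0.01 on adjusted p. The last follows from the stricter threshold, and for the 100-tag minimum and the wider joining fewer starts were tested, while for the 3 other tests the cause was not tested. All 137 calls of DESeq2, 80 of the 82 of limma and 136 of the 139 of diffSpliceDGE were among the 213. Without 1 library the count was 149 to 188. In the other settings, namely a locus total as offset, other tag, distance and gap minimums, a 2-fold minimum and joining within 5 bp, it stayed within 1.5 times, and in every setting more starts were higher than lower. The count of changed levels, 328, was 257 to 349 in every setting, 259 to 326 without 1 library. The pooled share stayed higher in KsirD in every setting, by 0.348 to 0.906 points without 1 library. The settings without starts near missing rows, without starts with over 50% of their tags at 1 base and without the most abundant start were chosen after seeing the data, and the last gave 0.460 points.

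Of 231 combinations of 21 named called starts and 11 settings, 226 kept direction and call and 5 lost the call, with none reversed. Of the 5 starts with most tags and the 5 with the highest ratio, the 8 not called passed in none of 88 combinations. The 31 starts of the leading clusters with most members were not rerun.

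Deviations of same-numbered libraries correlated at 0.1002, 0.0615 and 0.0455. For libraries of different numbers the values ran from −0.1004 to 0.0486, and only KsirD library 3 with Kctrl4 library 2 was positive. The values lean towards pairing by number, but they are small and the ranges overlap. They also share libraries and so are not independent, and the negative values are no separate sign of pairing. The numbers were not taken as pairs in the main fits. With a replicate block 235 shares (158 higher, 77 lower) and 349 levels changed, and the pooled share differed by 0.585 points (exact sign-flip p = 0.25, the smallest possible). Counts of a few tags per library limit the weak starts.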

Other observations

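Among the secondary starts, 206 had a leading cluster of the opposite strand less than 500 bp upstream, as the second arm of a divergent pair would. Of these 13 were higher and 6 lower in share (9.22% called), against 130 higher and 64 lower of the 2364 without one (8.21%). Their median ratio to their own leading cluster was 0.0467, against 0.0259 without one. A further property, counted separately, is the next leading start of the same strand, which lay less than 2000 bp downstream of 391 secondary starts.

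The 184 starts with more than 80% of their tags at 1 base lay nearer to the main start than the other 2386, at a median of 445 bp against 643.5 bp, with a median of 69 against 77 tags. Of these nearly single-base starts 1 was higher and 3 were lower in share, against 142 higher and 67 lower of the rest. Starts with an edge-to-edge gap of under 100 bp to the leading cluster had 19 higher and 9 lower shares of 473 (5.92% called), against 8.82% of the 2097 with a wider gap.

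The 100 kb of scaffold 1 from 1.0 to 1.1 Mb held 73 secondary starts, 5 higher and 4 lower in share (12.3% called, against 8.29% of all secondary starts and 12.1% of all pairs). In level, 4 rose and 8 fell of 48 tested there (8.33% and 16.7%). The last 100 kb of scaffold 2 held 79, with 7 higher and 6 lower in share (16.5% called), and in level 4 rose and 16 fell of 53 tested (7.55% and 30.2%). Of all tested secondary starts 11.1% rose and 9.34% fell in level, and of all tested clusters 10.4% rose and 14.0% fell. Both stretches were chosen with earlier results of these data known.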
